A study of Mus musculus with 34 samples.

Results

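The glycolysis enzyme genes are the 10 genes Hk1, Hk2, Gpi1, Pfkl, Pfkp, Aldoa, Tpi1, Pgk1, Pkm and Ldha, taken as the rows of the deposited mRNA-seq table that carry one of these names. They filled 11 of the 22040 rows of protein-coding genes, because Aldoa has 2 rows. The study profiled E11.5 mouse limb buds, and the RNA-seq libraries fall into 3 wild-type (WT) and 3 conditional knockout (CKO) replicates. CKO embryos were Prrx1-Cre;Hnrnpk fl/fl, in which Cre deletes a loxP-flanked part of Hnrnpk in limb bud mesenchyme. The labels give the WT embryos as Hnrnpk WT, with no Cre or loxP allele named. Prrx1-Cre is not active in the apical ectoderm of the limb bud and deletes less completely in the hindlimb, and blood, vessel and ectoderm cells of the bud keep the gene, so that a CKO library mixes deleted and undeleted cells. Values are FPKM, that is reads scaled by gene length and library size, which allows levels to be compared between genes.

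Glycolysis turns glucose into pyruvate. Hexokinase traps glucose in the cell, phosphofructokinase commits it to the pathway, aldolase splits the sugar, and the lower steps pass the fragments on to pyruvate kinase, where ATP is made. Lactate dehydrogenase then regenerates the NAD+ that the pathway needs by reducing pyruvate to lactate. In the early limb bud, glycolysis is known to be active in rapidly dividing mesenchyme, and most steps are served by several isoenzymes whose balance differs between tissues.

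Hnrnpk itself was examined first, as a check of the labels. Its level was 193, 195 and 185 FPKM in WT replicates 1 to 3 and 127, 142 and 135 FPKM in CKO replicates 1 to 3. Every CKO value lay below every WT value, in the direction the labels give. The difference was -0.50 on the log2 scale (95% confidence interval -0.80 to -0.21), with a limma adjusted *p* = 0.334, and adjusted *p* = 0.0575 with the replicate number as a block. It passed in voom with the block (adjusted *p* = 0.0223) and for replicates 2 and 3 alone (adjusted *p* = 0.0377), and over all alternatives the adjusted *p* ran from 0.0223 to 1. The whole gene was counted, including exons outside the deleted part and reads from undeleted cells.

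Replicate 1 of both groups stood apart from the other libraries before any difference between groups. The first principal component of log2 values over 12305 genes held 52.6% of the variance and placed WT replicate 1 at -32.1 and CKO replicate 1 at -30.4, with the other 4 libraries between 6.09 and 27.7. Deviations from the group means correlated at 0.64 between the replicates 1. They correlated at 0.44 between the replicates 2 and 0.27 between the replicates 3, against 0.49 for WT replicate 2 with CKO replicate 3 and 0.31 for WT replicate 3 with CKO replicate 2, so the values show number 1 apart and no pairing within numbers 2 and 3. Fits with the replicate number as a block rest on the labels for that pairing. The enzyme genes are also summarised for replicates 2 and 3 alone. The summed FPKM of 8 muscle precursor genes was 12.4 in WT replicate 1 against 45.9 and 42.8 in the other WT libraries. In CKO it was 30.5 in replicate 1 against 65.0 and 52.3. Their most abundant gene was Actc1, a muscle actin, and no gene of the list was at 0 in all libraries. Not every gene of the list was low in replicate 1. Pax3, named after its values were seen, was 3.3, 1.13 and 1.32 FPKM in WT and 3.14, 1.65 and 2.01 FPKM in CKO, and Myod1 was 1.97, 6.80 and 6.63 FPKM in WT and 7.33, 6.82 and 7.50 FPKM in CKO. Chondrocyte precursor genes summed to 92.5, 149 and 148 FPKM in WT and 102, 88.3 and 97.3 FPKM in CKO, so that replicate 1 was lowest in WT and highest in CKO.

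The promoters of Pgk1 and Ldha are shown as a pair of members with closely similar profiles over the 6 libraries (Pearson r = 0.94). Pairs that were more alike, such as Aldoa with Pkm (0.98), are not shown, so these windows do not stand for the members. That of Pdk1 is shown because its group difference stood out among the genes around the pathway. All are the 250 bases before a RefSeq start site in GRCm38.p6, from chrX:106186850-106187099 (+ strand) for Pgk1, chr7:46845554-46845803 (+ strand) for Ldha and chr2:71872974-71873223 (+ strand) for Pdk1. The Ldha window lies in an intron of a longer annotated Ldha transcript, and the other windows end where the annotated gene begins. Capitals mark ACGTG on either strand, which is the form with A of the hypoxia-inducible factor core (A or G, then CGTG) and also part of the E-box CACGTG. The form with G was not marked or counted.
Pgk1: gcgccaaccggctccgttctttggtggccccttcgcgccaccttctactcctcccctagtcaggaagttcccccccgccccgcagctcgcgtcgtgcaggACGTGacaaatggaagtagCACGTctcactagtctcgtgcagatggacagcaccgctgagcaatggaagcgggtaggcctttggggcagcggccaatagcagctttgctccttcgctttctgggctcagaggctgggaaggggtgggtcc
Ldha: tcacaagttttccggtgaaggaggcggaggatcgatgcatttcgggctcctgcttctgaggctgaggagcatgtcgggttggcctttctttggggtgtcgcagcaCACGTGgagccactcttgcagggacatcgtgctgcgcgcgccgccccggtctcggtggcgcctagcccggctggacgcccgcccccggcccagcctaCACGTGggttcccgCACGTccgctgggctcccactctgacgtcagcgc
Pdk1: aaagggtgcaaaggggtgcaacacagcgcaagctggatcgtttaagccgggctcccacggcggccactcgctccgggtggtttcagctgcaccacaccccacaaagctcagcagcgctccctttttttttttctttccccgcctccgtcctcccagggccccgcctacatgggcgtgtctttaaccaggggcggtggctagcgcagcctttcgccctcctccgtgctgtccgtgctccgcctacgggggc
Pgk1 held 2 matches, at 150 and 131 bases before the start site. Ldha held 5, of which 4 are both strands of 2 copies of CACGTG. The Pdk1 window held 0 matches of ACGTG, but it does hold the unmarked form GCGTG. Over 32851 windows of the same length, 16.6% held ACGTG. All 10 members had an entry, with 15 entries in all, and 5 of them had ACGTG in at least 1 of their windows. Over all entries this held for 18.5% of 27025 genes. A gene with more windows has more chances of a match, so these shares are not strictly alike. Enrichment was not tested. Factor binding was not examined.

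Levels of the members spanned a wide range. The mean over 6 libraries ran from 1.91 FPKM for Pfkp to 281 FPKM for Pkm. Pkm ranked 99 among the 12305 genes tested, Ldha 138, Pgk1 176, Aldoa 247 and Tpi1 248. Gpi1 ranked 1132 and Pfkl 1871, while Hk2 and Hk1 stood close together at 5434 and 5454 and Pfkp at 10052. Summed over isoenzymes, the steps from aldolase on stood above those before it, except glyceraldehyde-3-phosphate dehydrogenase, which was the lowest of the 11 steps at 12.7 FPKM and whose listed level is uncertain, as given below for Gapdh. In these sums lactate dehydrogenase was highest at 324 FPKM, pyruvate kinase next at 304 FPKM and enolase at 255 FPKM, while hexokinase reached 17.9 FPKM and phosphofructokinase 50.5 FPKM. The order of the leading pair is within the spread, since pyruvate kinase was 301 ± 50.0 FPKM (SD, n = 3) and lactate dehydrogenase 328 ± 30.2 FPKM (SD, n = 3) in WT. The depth behind a member's value ran from 36 recovered reads, for the second Aldoa row, to 34599 reads, for Pkm.

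**Figure D1:**
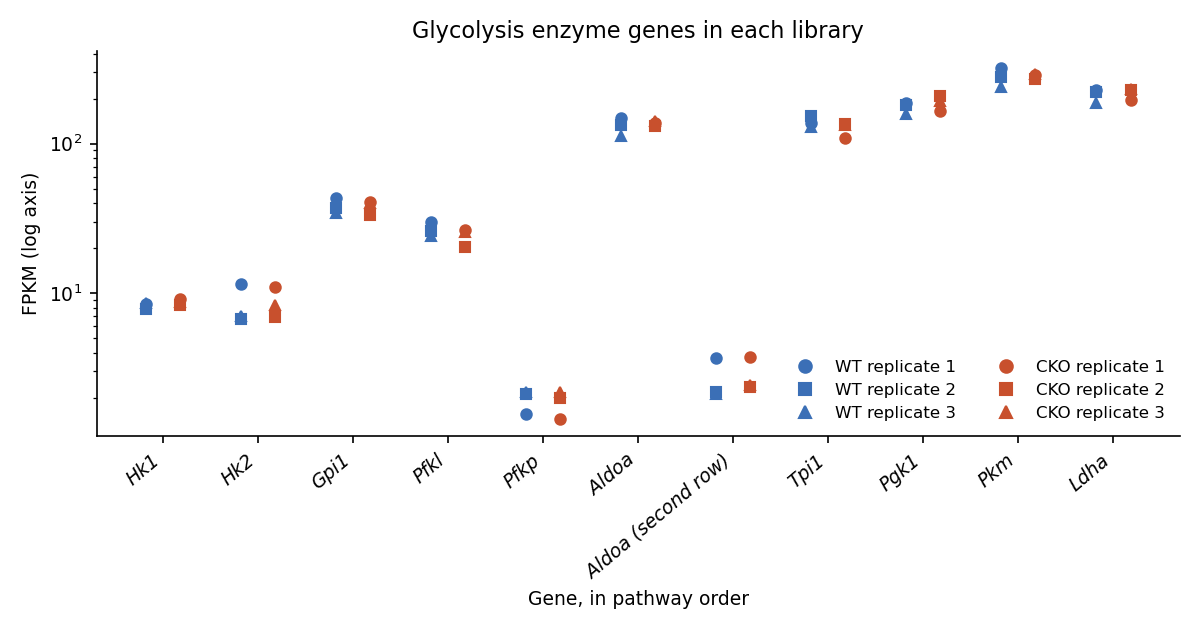
FPKM (log axis) of the 11 rows of the 10 glycolysis enzyme genes, with 1 point for each library, WT in blue and CKO in red, and the marker shape giving the replicate number. In every row the 3 CKO points overlap the 3 WT points, and Hk2, Pfkp and the second Aldoa row are split by replicate number, with replicate 1 apart from the others.

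No member row was called between CKO and WT. With limma, 0 of the 11 rows had an adjusted *p* under 0.05, against 0.0650% of all genes tested, and the lowest adjusted *p* of a member was 0.855. By the rule of a fold over 2 or under 0.5 with an unadjusted *p* under 0.05, 0 rows were called, against 0.666% of all genes. At an unadjusted *p* under 0.05 the count was also 0, against 8.31%, though under quantile normalization it was 1, Tpi1. In 0 of the 11 rows were the 3 CKO values all above or all below the 3 WT values, against 14.5% of all genes. With the replicate number as a block, 0 rows had an adjusted *p* under 0.05, against 2.81% of all genes, and 0 had an unadjusted *p* under 0.05, against 18.4%. The voom fits on recovered reads called 0 members too, against 0.0813% of all genes without the block and 5.30% with it. For replicates 2 and 3 alone limma called 0 members, against 15.0% of all genes, with a lowest adjusted *p* of 0.323. With so few rows, a share of 0 is near most of these backgrounds. Fewer cells of a type and less RNA per cell cannot be told apart in whole limb buds.

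The confidence intervals give the size of difference that the libraries leave possible. Estimates ran from -0.15 for Tpi1 to 0.10 for Pgk1 on the log2 scale, with 7 rows above 0 and 4 below. Over the 11 rows the 95% intervals reached from -0.54 to 0.71, that is from 0.686-fold to 1.64-fold of WT, so that a change of 2-fold in either direction lay outside the interval of every row, each taken alone. The median of the rows was 0.05, beside 0.00 over all genes tested. This median turned to -0.06 under quantile normalization and to -0.06 when libraries were scaled to an equal sum outside erythroid genes, a scaling that moved the median of all genes by -0.10. The rows above 0 were then 4 of 11 under quantile normalization, 0 of 11 with equal sums outside erythroid genes and 3 of 11 without WT replicate 3. Relative to all genes, the members' median was 0.05 before and 0.04 after that scaling. For replicates 2 and 3 alone the median was 0.11, with 8 rows above 0, beside 0.01 over all genes.

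Hexokinase genes opened the pathway at low levels. Hk1 (chr10:62268855-62379908, - strand), the broadly expressed form, was 8.51, 7.85 and 8.61 FPKM in WT replicates 1 to 3 and 9.11, 8.34 and 8.68 FPKM in CKO replicates 1 to 3. The groups overlapped, and the log2 difference was 0.06 (95% interval -0.19 to 0.32). Hk2 (chr6:82725025-82774454, - strand), the inducible form found in growing tissue, was 11.5, 6.72 and 7.00 FPKM in WT and 11.0, 6.93 and 8.28 FPKM in CKO. Here replicate 1 of both groups was high and the other 4 libraries were low, while the groups overlapped (log2 difference 0.07, interval -0.50 to 0.65). Mycn, one of the 2 most abundant genes of the list of regulators of glycolysis, had the same split, at 27.5, 14.5 and 14.4 FPKM in WT and 30.0, 16.3 and 20.3 FPKM in CKO. Myc, named after its values were seen, was 15.4, 6.38 and 6.92 FPKM in WT and 13.4, 6.34 and 7.76 FPKM in CKO. What the replicate numbers stand for is not given in the sources used here, and its part in these values was not tested.

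Gpi1 (chr7:34201330-34230336, - strand), which converts glucose-6-phosphate to fructose-6-phosphate, was 43.5, 37.4 and 34.4 FPKM in WT and 40.8, 33.1 and 40.3 FPKM in CKO. The groups overlapped and the log2 difference was -0.01 (interval -0.34 to 0.32). Gpi1 shares 741 exon bases with a long noncoding gene on the opposite strand, and 35.3% of its transcript has a near-identical copy elsewhere in the genome.

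Phosphofructokinase is the committed step. Pfkl (chr10:77986947-78010083, - strand), the liver-type subunit, was 29.9, 25.9 and 24.0 FPKM in WT and 26.6, 20.4 and 25.4 FPKM in CKO. The lowest value was CKO replicate 2, and the other CKO values lay within the WT range (log2 difference -0.14, interval -0.48 to 0.20). Pfkp (chr13:6579768-6648777, - strand), the platelet-type subunit, was 1.56, 2.11 and 2.17 FPKM in WT and 1.44, 2.0 and 2.18 FPKM in CKO. It was the mirror of Hk2, with replicate 1 of both groups low, and no separation of the groups (log2 difference -0.06, interval -0.54 to 0.43). Pfkp shares 748 exon bases with Pitrm1 on the opposite strand.

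Aldoa, the aldolase of muscle and most embryonic tissue, has its main row at chr7:126795234-126800751 (- strand). That row was 148, 134 and 113 FPKM in WT and 138, 131 and 141 FPKM in CKO. WT replicate 3 was the lowest library and the CKO values fell inside the WT range (log2 difference 0.06, interval -0.27 to 0.40). The second Aldoa row is a gene model of 799 exon bases at chr7:126800790-126809108, just upstream on the same strand, with 3.68, 2.20 and 2.12 FPKM in WT and 3.73, 2.35 and 2.41 FPKM in CKO. It too was high in replicate 1 of both groups, and it rested on 36 to 54 reads in a library.

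Tpi1 (chr6:124810586-124814296, - strand) interconverts the products of aldolase. It was 137, 152 and 129 FPKM in WT and 109, 136 and 133 FPKM in CKO, so that CKO replicate 1 alone lay below the WT range. The log2 difference of -0.15 (interval -0.49 to 0.19) was the lowest of the members. A near-identical copy covers 54.0% of its transcript at 1 other place. Under quantile normalization it was -0.27 with an unadjusted *p* = 0.0221 and an adjusted *p* = 0.510, in a range of 0.489 to 1 over all alternatives.

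Pgk1 (chrX:106187100-106203699, + strand) makes the first ATP of the pathway. It was 186, 181 and 159 FPKM in WT and 165, 208 and 192 FPKM in CKO. Replicate 1 was lower in CKO than in WT and replicates 2 and 3 were higher, and the log2 difference was 0.10 (interval -0.25 to 0.45). Near-identical copies cover 95.7% of its transcript at 4 other places, so its level depends on how reads with several matches were counted.

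Pkm (chr9:59656368-59679375, + strand), the pyruvate kinase of muscle and embryonic tissue, was 319, 281 and 239 FPKM in WT and 288, 270 and 290 FPKM in CKO. WT replicates 1 and 3 were the highest and lowest libraries, and the CKO values lay between them (log2 difference 0.02, interval -0.35 to 0.40). Pkm makes the M1 and M2 enzymes from alternative exons, which a value for the whole gene does not separate. Pkm also shares 767 of its 5001 exon bases with the gene model Gm49759 on the same strand, and a near-identical copy at 1 other place covers 91.4% of its transcript.

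Ldha (chr7:46841475-46855627, + strand), which encodes the lactate dehydrogenase subunit that favours lactate, was 227, 220 and 188 FPKM in WT and 196, 230 and 231 FPKM in CKO. The groups overlapped, and the log2 difference was 0.05 (interval -0.30 to 0.40). Near-identical copies cover 18.7% of its transcript. As for Pgk1, replicate 1 was lower in CKO and replicates 2 and 3 were higher.

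**Figure D2:**
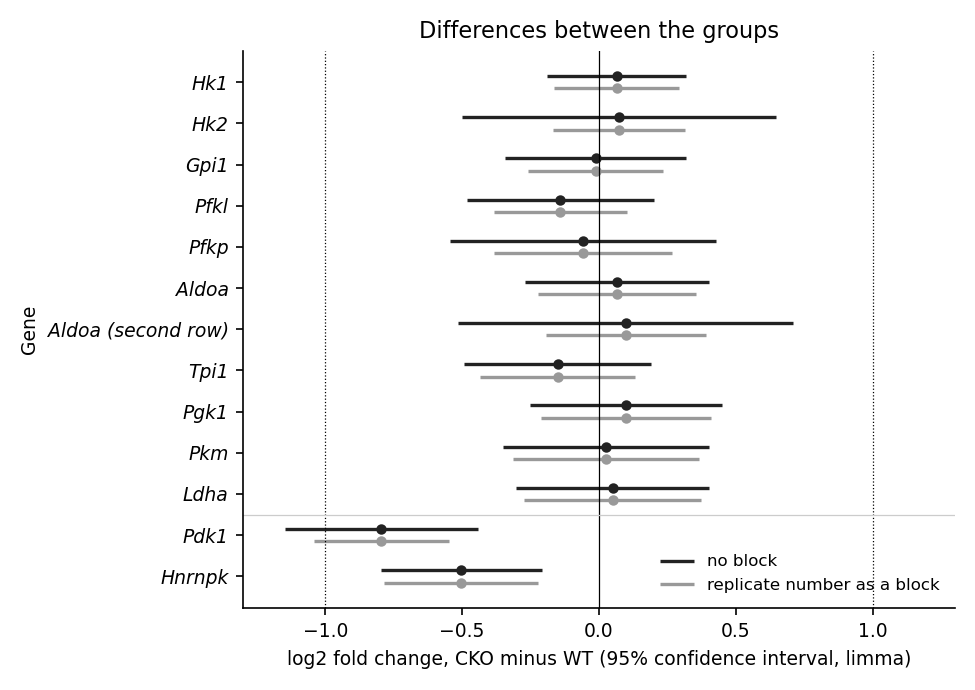
Log2 fold change of CKO against WT for each member row, with 95% confidence intervals from limma without a block (black) and with the replicate number as a block (grey), and Pdk1 and Hnrnpk below the line for comparison. Dotted lines mark a 2-fold change. Every member interval crosses 0 and stays within the dotted lines, whereas those of Pdk1 and Hnrnpk lie below 0.

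The direction of the members within a replicate number differed from number to number. In number 1, CKO was lower than WT in 9 of 11 rows, with a median log2 difference of -0.11, beside a median of -0.01 and 47.1% of genes higher over all genes tested. In number 2 it was lower in 6 and higher in 5, with a median of -0.03, beside 0.00 and 50.2%. In number 3 it was higher in 11 of 11, with a median of 0.23, beside a median of 0.00 and 50.3% of genes higher over all genes tested. WT replicate 3 held the lowest value in 5 of the 11 rows. Without WT replicate 3 the members' median was -0.04, and without WT replicate 1 it was 0.10.

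Red cell genes also differed between libraries of the same number. Of 14 erythroid genes in the table, 2 were higher in CKO than in WT in number 1, 14 in number 2 and 14 in number 3. Their summed FPKM was 38114, 63615 and 64379 in WT and 31126, 143614 and 86008 in CKO. The most abundant was Hbb-y, an embryonic beta globin, at 14198, 31035 and 31698 FPKM in WT and 12266, 78176 and 41794 FPKM in CKO, and no gene of the list was at 0 in all libraries. Median log2 differences of the erythroid genes were -0.29, 1.02 and 0.44 in numbers 1 to 3, so that number 2 had the highest for red cell genes and number 3 the highest for the enzyme genes. The part of red cell content in the members' values was not tested.

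The members did not vary as a single block. Over 55 pairs of rows the Pearson correlation of log2 values across the 6 libraries had a median of 0.18, with 34 pairs above 0. It was 0.98 for the main Aldoa row with Pkm, 0.97 for Hk2 with the second Aldoa row, 0.94 for Pgk1 with Ldha and 0.91 for Gpi1 with Pfkl. It was -0.97 for Pfkp with the second Aldoa row, -0.93 for Hk1 with Tpi1 and -0.89 for Hk2 with Pfkp. These are descriptions over libraries that share replicate numbers and differ in depth. The library sizes recovered from the values were smallest for replicate 1 of both groups, at 18026057 in WT and 18099462 in CKO. The part of depth in these correlations was not tested.

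**Figure D3:**
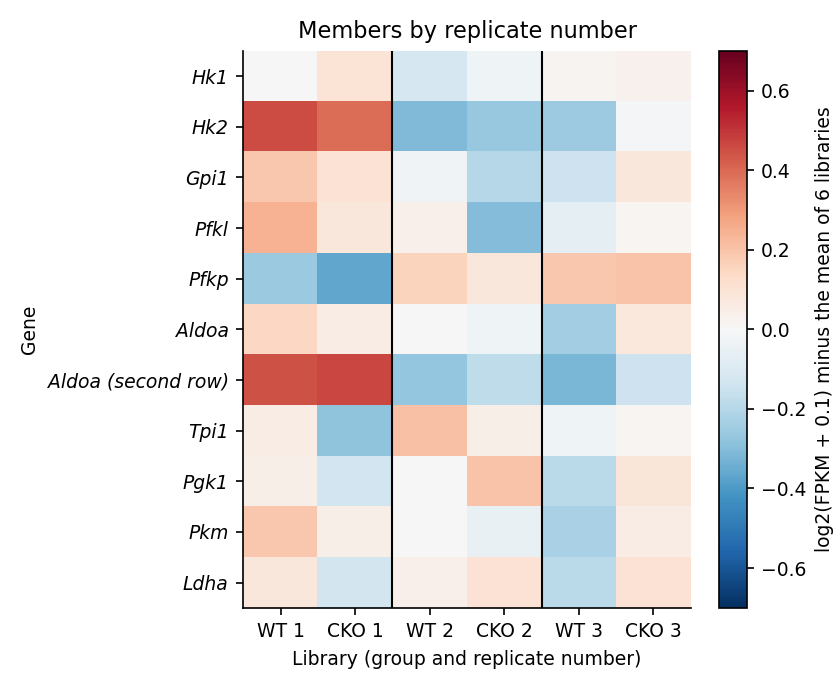
Each member's log2(FPKM + 0.1) minus its mean over the 6 libraries, with libraries ordered by replicate number. Hk2 and the second Aldoa row are high and Pfkp is low in both libraries of number 1, and in number 3 CKO is above WT in 11 of 11 rows.

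The 5 genes outside the set whose log2 profile was most like the mean standardized profile of the members over 6 libraries were Faap24 (Pearson r = 0.97), Slc29a3 (0.97), Gzmm (0.96), Peli3 (0.95) and Chd1l (0.95). Faap24 was 5.05, 4.19 and 3.08 FPKM in WT and 3.85, 3.69 and 4.39 FPKM in CKO, with WT replicate 1 highest and WT replicate 3 lowest. Chd1l was 7.71, 6.48 and 5.54 FPKM in WT and 6.51, 5.94 and 6.57 FPKM in CKO. The other 3 were at 2.44 FPKM or less in every library.

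Isoenzyme shares were compared next, since a share within a library does not depend on scaling between libraries. An exact two-sided permutation test of 3 against 3 cannot go below *p* = 0.1, and 6 shares were tested. Hk1 held 40.7, 50.8 and 51.6% of the summed hexokinase FPKM in the WT libraries and 43.9, 52.2 and 49.1% in CKO, so that Hk1 and Hk2 were about equal and replicate 1 of both groups leaned to Hk2. Pfkp held 3.69 ± 0.714% of phosphofructokinase in WT against 3.93 ± 0.957% in CKO (SD, n = 3 each). Most of that step was shared by Pfkl and Pfkm, the muscle-type subunit, which was named after its values were seen and measured 22.7, 25.3 and 25.0 FPKM in WT and 22.9, 20.9 and 22.7 FPKM in CKO. Differences between groups for Hk1 (exact permutation *p* = 0.8) and Pfkp (exact permutation *p* = 0.6) were within the spread.

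Aldoa, with both rows summed, held 99.4, 99.3 and 99.4% of aldolase FPKM in the WT libraries and 99.6, 99.7 and 99.5% in CKO. The groups did not overlap, with a difference of 0.204 percentage points (exact permutation *p* = 0.1, adjusted 0.6), the smallest *p* these samples allow. This difference came with low levels of Aldoc, the brain form, at 0.80, 0.90 and 0.62 FPKM in WT and 0.52, 0.45 and 0.63 FPKM in CKO. Pkm held 90.1, 95.2 and 93.7% of pyruvate kinase FPKM in WT and 92.3, 91.6 and 93.1% in CKO (exact permutation *p* = 0.8). The rest was Pklr, the form of liver and red cells, at 35.0, 14.2 and 16.1 FPKM in WT and 23.8, 24.8 and 21.7 FPKM in CKO, and Pklr shares 711 exon bases with Hcn3 on the opposite strand.

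Ldha held 71.0, 60.9 and 62.3% of lactate dehydrogenase FPKM in WT and 71.8, 66.1 and 68.4% in CKO. The mean share was 4.01 percentage points higher in CKO (exact permutation *p* = 0.3, adjusted 0.6), and within each number it was higher in CKO, by 0.801, 5.14 and 6.08 points. Its partner Ldhb, the heart-type subunit and one of the 2 most abundant genes of the other glycolysis enzymes, was 92.7, 141 and 114 FPKM in WT and 77.2, 118 and 107 FPKM in CKO. Near-identical sequence covers 98.5% of the Ldhb transcript at 1 other place. Eno1, of Eno1, Eno2 and Eno3, held 91.3 ± 0.636% in WT against 90.6 ± 0.289% in CKO (SD, n = 3 each, exact permutation *p* = 0.2, adjusted 0.6). Eno1b, with a mean of 9.29 FPKM over all libraries, was left out of this share but is part of the enolase sum given above.

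**Figure D4:**
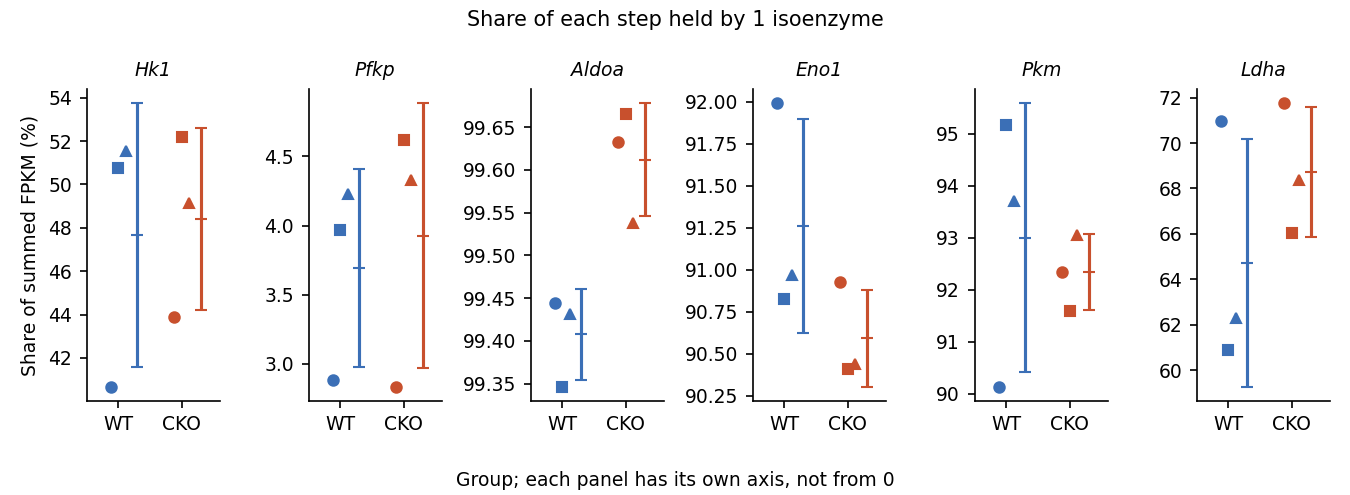
Percent of the summed FPKM of a step held by 1 isoenzyme in each library, WT in blue and CKO in red, with marker shapes for replicate numbers and bars for the mean ± SD of 3 libraries. Each panel has its own axis, which does not start at 0. The 3 CKO values lie above the 3 WT values for Aldoa, and overlap them for Hk1, Pfkp, Eno1, Pkm and Ldha.

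Of the 19 other glycolysis enzymes and isoenzymes, 12 were tested, with a median log2 difference of -0.09. Limma called 0 at an adjusted *p* under 0.05, against 0.0650% of all genes, and the fold rule 0, against 0.666%. At an unadjusted *p* under 0.05 there were 2, against 8.31% of all genes, and in 2 the groups did not overlap, against 14.5%. Both counts come from the same genes. Eno3, the muscle enolase, was 20.3, 20.2 and 17.2 FPKM in WT and 21.1, 27.6 and 25.2 FPKM in CKO. All CKO values lay above all WT values, with a log2 difference of 0.35 (interval 0.03 to 0.68, adjusted *p* = 0.564), and it passed for replicates 2 and 3 alone (adjusted *p* = 0.00717), as did 1851 of the 12305 genes. Ldhd, the mitochondrial D-lactate dehydrogenase, was 1.71, 2.54 and 2.56 FPKM in WT and 1.62, 1.04 and 1.49 FPKM in CKO. All CKO values lay below, with a log2 difference of -0.68 (interval -1.21 to -0.14, adjusted *p* = 0.490), and it passed in voom with the replicate block (adjusted *p* = 0.0259) and for replicates 2 and 3 alone (adjusted *p* = 0.000249). Over the other alternatives neither gene passed, with adjusted *p* up to 1. In number 1 the CKO value was close to that of WT, and 2246 of the exon bases of Ldhd are shared with Znrf1 on the opposite strand.

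Eno1, the most abundant enzyme of that list, was 237, 207 and 177 FPKM in WT and 216, 263 and 241 FPKM in CKO, with a log2 difference of 0.22 (interval -0.17 to 0.60). Near-identical copies at 4 other places cover 85.6% of its transcript. Gapdh, named after its values were seen, was listed at 10.6, 8.07 and 10.6 FPKM in WT and 11.8, 7.52 and 6.76 FPKM in CKO, far below the neighbouring steps of the pathway. Sequence near-identical to Gapdh stands at 137 other places of the genome, so its listed level is uncertain.

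**Figure D5:**
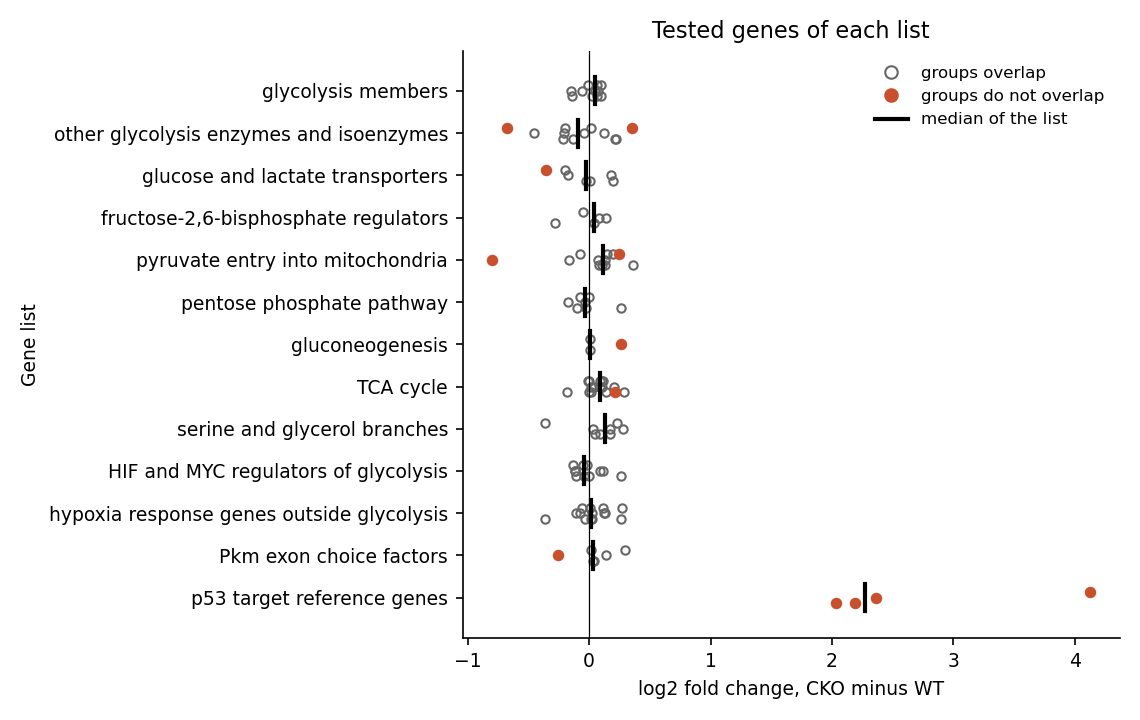
Log2 fold change of CKO against WT for each tested gene of the gene lists, with black bars for the list medians and filled points for genes whose groups do not overlap. The p53 target genes lie at or above 2.03, while the metabolic genes lie between -0.80 and 0.36.

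Of the 13 genes of pyruvate entry into mitochondria 12 were tested, and among them Pdk1 had the largest difference in size. Pdk1 encodes a kinase that switches off pyruvate dehydrogenase. It was 8.51, 6.85 and 6.57 FPKM in WT and 4.72, 3.71 and 4.06 FPKM in CKO. Every CKO value lay below every WT value, and within each number CKO was lower by a similar amount, at -0.84, -0.87 and -0.68 on the log2 scale. The log2 difference was -0.80 (interval -1.15 to -0.44), which did not pass limma without a block (adjusted *p* = 0.201) and passed with the replicate number as a block (adjusted *p* = 0.00352). It also passed for replicates 2 and 3 alone (adjusted *p* = 0.000124) and in voom with the block (adjusted *p* = 0.000176), and over all alternatives the adjusted *p* ran from 0.000124 to 0.853. It missed the fold of 2. The other kinases were Pdk2, Pdk3 and Pdk4, of which Pdk3 was 18.9, 17.2 and 17.9 FPKM in WT and 18.1, 20.4 and 19.7 FPKM in CKO.

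Of the other tested genes of this list none was called by limma, with or without the block. Pdp2, a phosphatase that acts against the kinases, was 3.20, 2.55 and 3.10 FPKM in WT and 3.41, 3.64 and 3.46 FPKM in CKO, without overlap (log2 difference 0.25, adjusted *p* = 0.704). The most abundant genes were Dld, a subunit of pyruvate dehydrogenase, at 38.5, 46.0 and 48.3 FPKM in WT and 36.4, 62.9 and 51.0 FPKM in CKO, and Pdha1, the subunit that the kinases modify, at 29.7, 29.7 and 28.7 FPKM in WT and 28.7, 39.1 and 33.9 FPKM in CKO. The median log2 difference of the 12 tested genes was 0.12.

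Glucose and lactate transporters were measured as 8 genes, of which 7 were tested and 0 called, with a median of -0.02. Over all genes tested, 0.0650% were called by limma and 14.5% did not overlap between groups. Slc2a4, the insulin-responsive glucose transporter, was 5.82, 6.67 and 6.05 FPKM in WT and 4.97, 4.87 and 4.57 FPKM in CKO. Its CKO values all lay below the WT values (log2 difference -0.36, interval -0.63 to -0.08, adjusted *p* = 0.473), and it passed for replicates 2 and 3 alone (adjusted *p* = 0.0296), with a range of 0.0296 to 1 over all alternatives. Slc2a1, the main glucose transporter of embryonic cells, was 26.7, 22.0 and 21.2 FPKM in WT and 21.9, 22.2 and 24.4 FPKM in CKO, with overlap. Bsg, the chaperone of the lactate transporters, was 114, 164 and 143 FPKM in WT and 111, 152 and 161 FPKM in CKO.

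The 5 regulators of fructose-2,6-bisphosphate, the activator of phosphofructokinase, were all tested, and 0 were called (median 0.04). Pfkfb3 was 4.52, 3.15 and 3.11 FPKM in WT and 4.16, 2.87 and 3.36 FPKM in CKO, and Pfkfb1 was 3.60, 3.26 and 3.12 FPKM in WT and 2.23, 5.21 and 3.42 FPKM in CKO. In the pentose phosphate pathway, which branches off after hexokinase, 0 of 7 genes were called (median -0.03). Its most abundant genes were Taldo1, at 46.3, 69.2 and 60.6 FPKM in WT and 44.9, 93.9 and 79.1 FPKM in CKO, and Tkt, at 42.8, 35.5 and 34.6 FPKM in WT and 39.8, 34.1 and 38.5 FPKM in CKO.

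Neighbouring pathways gave similar counts. Over all genes tested, 0.0650% were called by limma, 0.666% by the fold rule, and 14.5% did not overlap between groups. In lists this short, here and below, a count of 0 called is near those shares. Of the 7 gluconeogenesis genes 3 were tested and 0 called (median 0.01). Pck2, the mitochondrial PEP carboxykinase, was 2.57, 2.69 and 2.74 FPKM in WT and 3.26, 3.01 and 3.42 FPKM in CKO without overlap (log2 difference 0.27, adjusted *p* = 0.639), while G6pc3 had a log2 difference of 0.01 and Pcx of 0.01. Of the 16 TCA cycle genes 16 were tested and 0 called (median 0.09). Cs, citrate synthase, was 50.4, 43.8 and 44.9 FPKM in WT and 52.5, 52.0 and 56.8 FPKM in CKO without overlap (log2 difference 0.21, adjusted *p* = 0.696), and the most abundant genes, Sdhd and Mdh2, had log2 differences of 0.20 and 0.14. Of the 8 genes of the serine and glycerol branches 0 were called (median 0.13), with Phgdh, the entry enzyme of serine synthesis, at 0.05 and Shmt2 at 0.17.

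The 11 HIF and MYC regulators were tested and 0 called (median -0.04). Hif1a, the oxygen-regulated subunit of the hypoxia-inducible factor, was 27.1, 24.6 and 26.7 FPKM in WT and 27.5, 25.7 and 25.1 FPKM in CKO, a log2 difference of 0.00 (interval -0.25 to 0.25). Of 15 hypoxia response genes outside glycolysis, 14 were tested and 0 called (median 0.02). Mif, the most abundant, was 307, 299 and 219 FPKM in WT and 262, 321 and 308 FPKM in CKO, and Bnip3l was 34.5, 44.0 and 44.7 FPKM in WT and 30.2, 59.1 and 48.5 FPKM in CKO. In these lists of metabolic genes and regulators the counts of 0 hold for limma over all 6 libraries. For replicates 2 and 3 alone, where 15.0% of all genes passed, Pklr, Taldo1, Sucla2, Psat1 and Psph passed as higher in CKO and Gpd1 and Vegfa as lower, besides Eno3, Ldhd, Slc2a4 and Pdk1 above.

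Factors known to act on the choice between the alternative exons of Pkm numbered 6, with 0 called (median 0.04). Hnrnpa1, the most abundant, was 1041, 1017 and 981 FPKM in WT and 793, 900 and 861 FPKM in CKO. No CKO library reached the lowest WT value, with a log2 difference of -0.25 (interval -0.68 to 0.18, adjusted *p* = 0.792). Hnrnpa2b1 was 263, 296 and 298 FPKM in WT and 269, 292 and 306 FPKM in CKO, with overlap.

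A list of 4 p53 target genes shows what the same libraries give for genes with large differences. The list was chosen with earlier results of these data known, so its count of calls does not measure how readily the libraries detect a difference. Cdkn1a, Ccng1, Eda2r and Phlda3 were called by limma in 4 of 4 cases and by the fold rule in 4 of 4, with a median log2 difference of 2.28. Ccng1 was 9.78, 10.8 and 11.8 FPKM in WT and 37.3, 77.9 and 60.1 FPKM in CKO (adjusted *p* = 0.0274). Eda2r, a receptor gene, was 0.32, 0.18 and 0.23 FPKM in WT and 4.70, 7.19 and 5.93 FPKM in CKO (adjusted *p* = 0.00165). Eda2r kept its call whichever library was left out. The call of Cdkn1a was lost without WT replicate 3 (adjusted *p* = 0.117), CKO replicate 2 (0.0782) or CKO replicate 3 (0.117), and that of Phlda3 without the same libraries (0.117, 0.0808 and 0.117). Their log2 differences without these libraries were 2.104 to 2.201 for Cdkn1a and 1.95 to 2.03 for Phlda3, beside 2.19 and 2.03 with all libraries. The call of Ccng1 was kept without CKO replicate 1 and lost without any other library (0.0721 to 0.199), with log2 differences of 2.13 to 2.43 beside 2.36, and it was at 0.0523 when no gene was filtered out.

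Marker lists were read for the cell types that a limb bud can hold. Limb mesenchyme genes were present in every library, with a summed FPKM of 320 ± 4.30 in WT against 290 ± 16.3 in CKO (SD, n = 3 each) and with Twist1 as the most abundant gene. Of its 8 genes 0 were called, and Pdgfra did not overlap (30.0, 33.5 and 30.3 FPKM in WT and 28.3, 28.9 and 26.0 FPKM in CKO). Sums in WT and CKO were 30.6 ± 5.43 and 24.6 ± 5.74 (SD, n = 3 each) for endothelial genes, 32.8 ± 1.97 and 38.1 ± 8.64 for macrophage genes, 63.9 ± 15.7 and 70.5 ± 16.3 for ectoderm genes, 17.9 ± 4.38 and 20.2 ± 1.01 for neural crest and Schwann precursor genes and 130 ± 32.4 and 95.9 ± 6.98 for chondrocyte precursor genes. None of the marker genes was called by limma without a block, and with the block Actc1 alone had an adjusted *p* under 0.05 (0.0266). In voom with the block, which called 5.30% of all genes, more of them passed. Higher in CKO were Actc1 (adjusted *p* = 0.00828), the erythroid genes Hbb-bt (0.0104) and Hba-a2 (0.0345) and the neural crest gene Tfap2b (0.0479). Lower in CKO were the endothelial gene Tie1 (0.0453) and the chondrocyte precursor genes Col9a1 (0.0146) and Matn4 (0.0244). For replicates 2 and 3 alone, which called 15.0% of all genes, 8 of 14 tested erythroid genes, 6 of 6 chondrocyte precursor genes, 2 of 8 macrophage genes and 2 of 6 muscle precursor genes passed, and 0 of the limb mesenchyme, endothelial, ectoderm and neural crest genes. Marker genes whose groups did not overlap included, besides Pdgfra, Tie1, which was lower in CKO, and Fcer1g, Myod1, Trp63 and Tfap2b, which were higher. The neural crest list held 2 such genes, of which only Tfap2b is named. Over all genes tested, 14.5% did not overlap. The part of cell type content in the members' values was not tested.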

How the data were processed

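The authors deposited 1 table of FPKM values for protein-coding genes, with 1 column per library. Per the labels, a stranded mRNA kit was used and reads refer to mm10; the processing notes name cutadapt 2.5, HISAT2 2.1.0 and featureCounts 1.6.3, with no role given, and the strand setting, the treatment of reads with several matches and the scaling are not given in the sources used here. FPKM times exon length (GENCODE vM21, 22010 of 22040 identifiers) came out as whole reads, within 0.1 of a read, for 94.8 to 95.6% of low values, which gave library sizes of 18026057 to 23935505. Recovered reads came to 0.947 to 1.11 times those sizes, so FPKM was not divided by the plain total of these genes. Genes whose mean FPKM reached 0.5 were tested on log2(FPKM + 0.1), a scale that understates changes of low genes, with limma 3.58.1 in R 4.3.3 (eBayes with trend, two-sided, Benjamini-Hochberg over 12305 genes), after a test on simulated data. The main fit had no block. The block, given where it changes a call, rests on the shared numbers in the labels, since deviations from the group means showed number 1 apart but no pairing within numbers 2 and 3. Near-identical copies were alignments of at least 100 bases at 95% identity. The members and gene lists were chosen with earlier results of these data known. Named from each list other than the marker lists were genes called by either rule or without overlap between groups and the 2 most abundant. From the marker lists only part of these were named. Aldoc, Gapdh, Myc, Pax3, Pdk3, Pfkm, Pklr and the further genes passing in voom with the block or for replicates 2 and 3 alone were named after their values were seen.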

Additional observations from a re-analysis of the deposited data

How the results depend on the processing

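No member was called by either rule under any alternative, and the members' median log2 difference stayed within the spread between replicates (SD 0.17), from -0.04 to 0.10 when 1 library was left out and 0.11 for replicates 2 and 3 alone. Counts over all genes moved. The 8 genes at an adjusted p under 0.05 became 13 under quantile normalization, 4 with equal sums outside erythroid genes and 1851 for replicates 2 and 3 alone. With the replicate block, the paired fit, they became 346, and 652 in voom with the replicate block. Leaving out 1 library gave 1 to 23, the highest without CKO replicate 1, with 3 when WT replicate 2 was dropped and 1 when WT replicate 3, CKO 2 or CKO 3 was. The 82 genes of the fold rule became 38 and 15 with pseudocounts of 0.5 and 1, 162 without a filter, 47 at a mean FPKM of at least 1, 126 in voom with the replicate block and 184 for replicates 2 and 3 alone. Leaving out 1 library gave 73 to 168, with 140 without WT replicate 1 and 168 without CKO replicate 1. Fewer samples or other filters change the genes tested or the spread; other causes were not tested.

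Small estimates changed sign. Under quantile normalization Pfkp was 0.0068, Aldoa -0.056, Pgk1 -0.021, Pkm -0.093 and Ldha -0.084. With equal sums outside erythroid genes Hk1 was -0.040, Hk2 -0.032, Aldoa -0.041, its second row -0.0034, Pgk1 -0.0067, Pkm -0.081 and Ldha -0.055. Gpi1 was 0.0039 under median-ratio scaling and 0.026 for replicates 2 and 3 alone. Over leave-one-out fits the log2 differences ran from -0.10 to 0.32 for Hk2, -0.089 to 0.085 for Gpi1, -0.20 to 0.11 for Pfkp, -0.041 to 0.15 for Aldoa, -0.11 to 0.35 for its second row, -0.083 to 0.13 for Pkm and -0.032 to 0.13 for Ldha, and, with the sign kept but the size moved by over 1.5 times, 0.024 to 0.095 for Hk1, -0.21 to -0.025 for Pfkl, -0.21 to -0.048 for Tpi1 and 0.025 to 0.19 for Pgk1. Isoenzyme shares differed between the groups, when 1 library was left out, by -2.77 to 2.99 percentage points for Hk1, -0.170 to 0.781 for Pfkp and -2.10 to 0.416 for Pkm, while the sign held for Ldha at 2.1 (without WT replicate 2) to 7.12 (without WT replicate 1), Eno1 at -0.888 to -0.304 and Aldoa at 0.174 to 0.241. From recovered reads in place of FPKM, every share difference kept its sign and permutation p, with Eno1 at -0.193 against -0.669, Pfkp at 0.531 against 0.234, Hk1 at 0.524, Aldoa at 0.228, Pkm at -0.446 and Ldha at 2.86 points. The mean within-number differences (replicate block) equalled the unpaired ones, since every number has both groups, and gave sign-flip permutation p of 0.25 to 0.75, where 0.25 is the smallest possible. Besides Pdk1 and Actc1 in the report, the replicate block in limma changed no call of a listed gene. Depth limits the second Aldoa row most.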
